A study of Rattus norvegicus with 6 samples.

Results

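Syndecans, glypicans, the hyaluronan receptor Cd44 and the proteoglycan NG2 (gene Cspg4) were followed in primary rat Schwann cells given tamoxifen, to switch on the kinase Raf, or vehicle. The genes considered were Sdc1, Sdc2, Sdc3, Sdc4, Gpc1, Gpc2, Gpc3, Gpc4, Cd44 and Cspg4. Every probe set annotated to one of these 10 genes was taken, which gave 17 of the 31042 probe sets on the array. All 10 genes had at least 1 probe set. The list was chosen from values of the tamoxifen to vehicle contrast of these same arrays as well as from gene function. The members' own differences are therefore given as a description, without p-values, and no support is drawn from them.

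Both groups were primary Schwann cells from sciatic nerve, the myelinating glia of peripheral nerve, and both carried an inducible RafER allele. RafER is Raf fused to an estrogen receptor domain that binds tamoxifen, which turns the kinase on. One group received tamoxifen for 24 h (3 arrays) and the other the ethanol vehicle (3 arrays), from 3 experiments called independent in the series' design text. All cells had been kept in a defined minimal medium on poly-L-lysine and fibronectin. The sources used here do not say how RafER was introduced or whether animals were pooled. No cells lacking RafER are among the arrays analysed, so what tamoxifen does by itself cannot be told apart from what Raf does. The source labels speak of treated rats, whereas the design text has treatment in culture, and the design text is followed.

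Syndecans are transmembrane proteins and glypicans are proteins held in the membrane by a lipid anchor. Both carry heparan sulfate, a sulfated sugar chain that binds growth factors, morphogens and matrix proteins and presents them to signalling receptors. Cd44 binds the matrix sugar hyaluronan and links it through ezrin, radixin and moesin to actin. NG2 carries chondroitin sulfate and is best known from oligodendrocyte precursors and pericytes. In peripheral nerve, surface proteoglycans help Schwann cells to attach to laminin and collagen.

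The sequence upstream of the transcription start is shown for 3 syndecans that differed in how far they stood apart after tamoxifen: Sdc1 (far), Sdc3 (moderately) and Sdc4 (within the spread of the arrays). Each run is the 250 bases before the start, 5′ to 3′ on the gene's strand, from RefSeq on build GRCr8. Capitals mark matches to the GC box GGGCGG, which Sp1 is known to bind, and to the ETS core CCGGAA, on either strand. In Sdc4 the single ETS match overlaps a GC box, and a pair of its GC boxes share a base. The positions are chr6:37281791-37282040 on the plus strand for Sdc1, chr5:148249542-148249791 on the plus strand for Sdc3 and chr3:173592924-173593173 on the minus strand for Sdc4.
Sdc1: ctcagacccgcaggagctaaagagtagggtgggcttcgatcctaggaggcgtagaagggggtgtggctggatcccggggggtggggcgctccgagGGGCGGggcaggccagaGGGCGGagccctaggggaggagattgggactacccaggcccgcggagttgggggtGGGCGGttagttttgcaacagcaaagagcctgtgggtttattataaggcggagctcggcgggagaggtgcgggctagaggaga
Sdc3: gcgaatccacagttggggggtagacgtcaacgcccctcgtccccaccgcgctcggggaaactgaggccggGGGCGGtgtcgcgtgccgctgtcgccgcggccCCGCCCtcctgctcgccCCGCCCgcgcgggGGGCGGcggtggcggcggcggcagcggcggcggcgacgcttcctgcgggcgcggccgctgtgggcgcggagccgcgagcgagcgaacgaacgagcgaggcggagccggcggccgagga
Sdc4: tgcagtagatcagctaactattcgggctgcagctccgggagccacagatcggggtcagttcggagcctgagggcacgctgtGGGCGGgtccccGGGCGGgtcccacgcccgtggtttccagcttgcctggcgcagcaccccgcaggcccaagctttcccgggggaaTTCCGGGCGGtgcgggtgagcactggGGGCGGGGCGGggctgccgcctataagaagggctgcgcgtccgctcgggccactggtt

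The windows hold 3 GC boxes in Sdc1, 4 in Sdc3 and 5 in Sdc4, and their GC content was 65.2%, 80.0% and 70.0%. Of the 10 members 8 matched an entry of the promoter table, which left out Sdc2 and Gpc1. A GC box was found in 7 of these 8, against 30.5% of 33469 promoter windows of the same length, and all 8 lay above the median GC content of 51.2% (60.8% to 80.0%). The Cd44 window, which lies wholly inside the annotated gene, was the one without a GC box. In the Gpc4 window 85 bases also lie inside its annotated gene. The AP-1 element TGANTCA was in 0 of 8 windows, against 6.34% of all. The cAMP element TGACGTCA was in 0 of 8 (1.59% of all), and the ETS core was in 1 of 8 (12.6% of all). The TATA element TATAAA was in 0 of 8 (12.9% of all), as was the E-box CACGTG (5.59% of all). All motifs were sought on both strands. A match says only that the letters are there, and its absence that they are not in this window.

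After tamoxifen, transcripts of Sdc1, Gpc4, Cd44 and Sdc3 stood higher, that of Gpc1 stood lower, and those of Sdc2 and Sdc4 differed little. On the linear scale the measured ratio was 41.2 for the brighter probe set of Sdc1, whose vehicle level cannot be told from background, so that its true size is uncertain. It was 7.72 for Gpc4 and 2.79 for Cd44. All values below are log2 expression values per probe set, normalised by the authors, and differences are tamoxifen minus vehicle in log2 units with the standard error of the fit. Where a gene has several probe sets they are called a, b and c from the brightest to the dimmest by their mean over the 6 arrays. Levels are not compared between genes, since probes differ in how well they bind.

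Of the 17 probe sets, 10 were called higher and 1 lower at an adjusted p of 0.05 in the limma fit across all probe sets, where 11.5% of all probe sets were called higher and 12.9% lower. Those higher were both of Sdc1, all 3 of Sdc3, Gpc2, Gpc3 a, Gpc4 and both of Cd44, and the one lower was Gpc1. In 11 of the 17 all 3 tamoxifen arrays lay above all 3 vehicle arrays (22.2% of all probe sets), and in 2 they lay below (20.2% of all). The median difference was 0.83 over the 17, against 0.03 over all 31042. Because this contrast was in view when the genes were chosen, nothing is read from these shares. The number called higher was 4 without tamoxifen array 3, where Sdc3, Gpc3 a, Gpc2 and Cd44 a were not called. Gpc1 was not called when tamoxifen array 2 or 3, any 1 vehicle array or both arrays of experiment 1 were left out. Without tamoxifen array 3 it was Sdc2 a that was called lower.

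**Figure D1:**
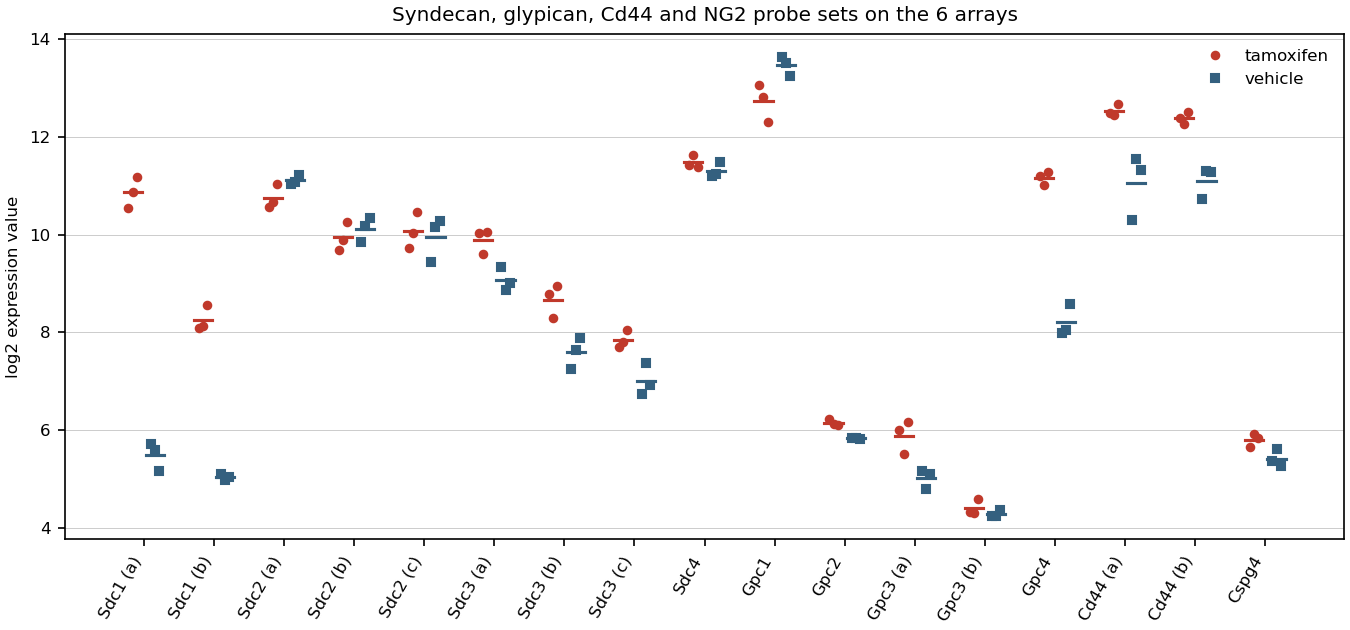
Log2 expression values (vertical axis) of the 17 probe sets on the 6 arrays, with tamoxifen arrays as circles on the left, vehicle arrays as squares on the right and a bar at each mean of 3. The groups lie far apart for Sdc1 and Gpc4, closer but without overlap for Sdc3 and Cd44, and overlap for Sdc4.

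Sdc1 encodes syndecan-1, which in adult tissue is best known from epithelia and plasma cells. Its brighter probe set (a, 1367849_at) read 10.55, 10.86 and 11.18 on the tamoxifen arrays of experiments 1, 2 and 3, against 5.72, 5.60 and 5.17 on the vehicle arrays. Every tamoxifen array lay far above every vehicle array, and the difference was 5.37 ± 0.21 (SE, n = 3 arrays per group) as measured, an uncertain size since the vehicle level may be background. The dimmer probe set (b, 1376062_at) read 8.09, 8.13 and 8.55 after tamoxifen, against 5.11, 4.99 and 5.04 after vehicle. Its difference was 3.21 ± 0.14, smaller than that of probe set a but in the same direction on all arrays. Vehicle values near 5 lie in the low part of the scale, where the normalisation used compresses differences and no detection call was given. A vehicle level near the background cannot be told from none.

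The genes whose course over the 6 arrays was most like that of Sdc1 a, by Euclidean distance of log2 values centred on each gene's own mean, were Rftn1, Gja1 and Igfbp3. Rftn1, which encodes the lipid raft protein raftlin, lay at a distance of 0.73 log2 units. Gja1, the gene of the gap junction channel protein connexin-43, lay at 0.94, and Igfbp3, which encodes a carrier of insulin-like growth factors, at 1.01. With 3 arrays in each of 2 groups this distance mostly reflects the size of the group difference. Neither another probe set of Rftn1 (difference -0.02) nor 1 of the other probe sets of Gja1 (0.14, low on all arrays) shared the course. Another probe set of Gja1 (3.62) and another of Igfbp3 (4.86) were also higher after tamoxifen.

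Sdc3 encodes syndecan-3, also called N-syndecan, which is abundant in neural tissue and in Schwann cells of the developing nerve. Probe set a (1372180_at) read 10.02, 9.61 and 10.04 after tamoxifen, against 9.33, 8.86 and 9.01 after vehicle. The lowest tamoxifen array lay above the highest vehicle array by less than the range within either group. The difference was 0.83 ± 0.17, and the other probe sets gave 1.08 ± 0.22 (b, 1368581_at) and 0.85 ± 0.18 (c, 1368580_at). For each of the 3 probe sets the groups did not overlap. The difference within experiments ranged more widely for b, with 1.54, 0.65 and 1.05 in experiments 1, 2 and 3.

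Sdc2, which encodes syndecan-2, a syndecan of mesenchymal cells, gave small differences that changed sign between probe sets. Probe set a (1382189_at) read 10.56, 10.66 and 11.04 after tamoxifen, against 11.04, 11.07 and 11.21 after vehicle. The tamoxifen arrays lay just below the vehicle arrays, with a difference of -0.36 ± 0.14. Without tamoxifen array 3 the difference of a was -0.50, and it was called lower. For probe sets b (1370166_at) and c (1370167_at) the groups overlapped, and the differences were -0.17 ± 0.18 and 0.11 ± 0.27. Without vehicle array 1 the difference of c was -0.15.

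Sdc4 encodes syndecan-4, a component of focal adhesions that acts with integrins on fibronectin, the coating these cells were grown on. Its probe set (1367721_at) read 11.42, 11.63 and 11.37 after tamoxifen, against 11.19, 11.23 and 11.48 after vehicle. The groups overlapped, and the difference was 0.17 ± 0.12. Of the 4 syndecan genes, Sdc1 and Sdc3 therefore stood apart between the groups by all of their probe sets and Sdc4 did not.

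Among the glypicans the picture was also uneven. Gpc4 encodes glypican-4, a carrier of heparan sulfate known to act on Wnt, FGF and BMP signals. Its probe set (1392888_at) read 11.20, 11.01 and 11.27 after tamoxifen, against 8.0, 8.05 and 8.58 after vehicle. The tamoxifen arrays lay close together and all far above the vehicle arrays. The difference was 2.95 ± 0.17, and within experiments 1, 2 and 3 it was 3.20, 2.96 and 2.69.

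Gpc1 encodes glypican-1, the glypican long known from Schwann cells, where it binds collagen type V. Its probe set (1387039_at) read 13.06, 12.80 and 12.30 after tamoxifen, against 13.63, 13.50 and 13.23 after vehicle. All tamoxifen arrays lay below all vehicle arrays. The difference was -0.73 ± 0.21, or 0.601 of the vehicle level on the linear scale.

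Gpc3 and Gpc2 were read at low levels. Gpc3 encodes glypican-3, which restrains hedgehog signalling and body growth. Its probe set a (1368395_at) read 6.0, 5.51 and 6.17 after tamoxifen, against 5.17, 4.80 and 5.10 after vehicle, a difference of 0.87 ± 0.19 with no overlap. Probe set b (1396620_at) stayed between 4.25 and 4.60 on all 6 arrays, with a difference of 0.13 ± 0.11. Gpc2 encodes glypican-2, or cerebroglycan, known from developing neurons. Its probe set (1370448_at) read 6.23, 6.13 and 6.11 after tamoxifen, against 5.85, 5.85 and 5.83 after vehicle. The difference of 0.32 ± 0.08 was small, with no overlap between the groups.

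Cd44 was high in both groups and higher after tamoxifen. Probe set a (1387952_a_at) read 12.47, 12.44 and 12.67 after tamoxifen, against 10.30, 11.54 and 11.32 after vehicle. Probe set b (1368921_a_at) read 12.38, 12.27 and 12.49 after tamoxifen, against 10.72, 11.29 and 11.27 after vehicle. In both, the groups did not overlap and vehicle array 1 was the lowest. The differences were 1.48 ± 0.31 for a and 1.29 ± 0.17 for b. On vehicle array 1 the 3′ probe sets of 3 control transcripts exceeded the 5′ ones by a mean of 0.84 log2 units, a sign of RNA quality that was 0.16 to 0.27 elsewhere. Its part in the Cd44 values was not tested. Without that array both probe sets gave a difference of 1.10. The suffix of both probe sets marks probes that match several transcripts of 1 gene, so the splice forms for which Cd44 is known could not be told apart.

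Cspg4, the NG2 gene, was low on all arrays. Its probe set (1368685_at) read 5.65, 5.92 and 5.84 after tamoxifen, against 5.36, 5.61 and 5.28 after vehicle. The lowest tamoxifen array lay just above the highest vehicle array. The difference was 0.39 ± 0.12.

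**Figure D2:**
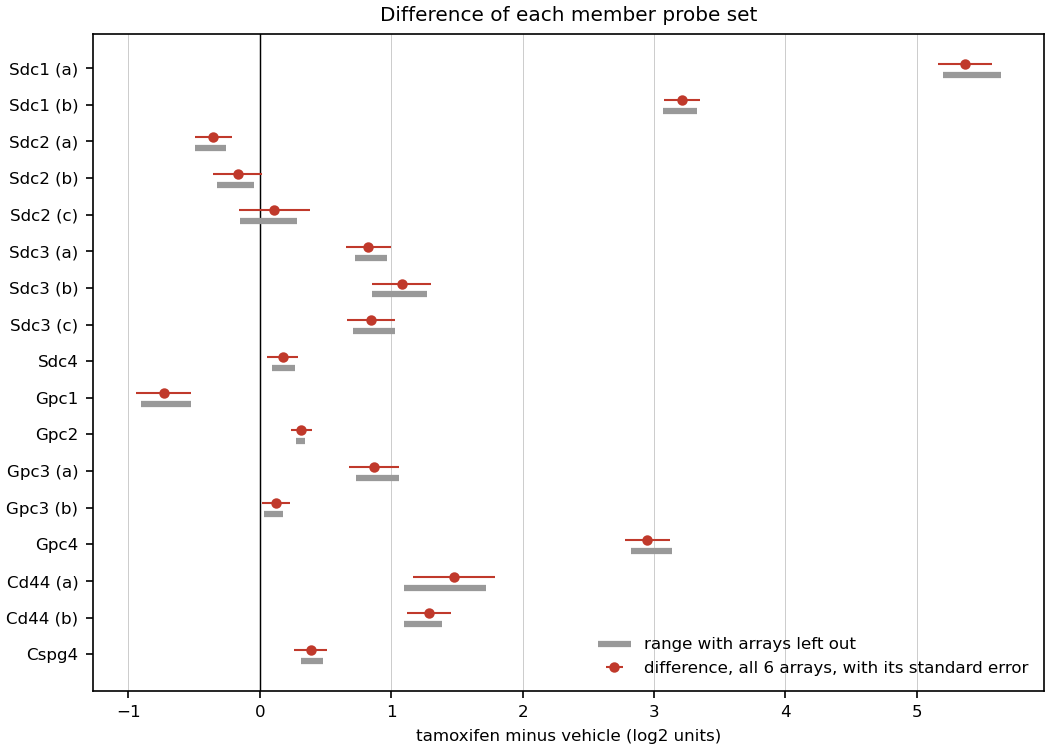
Difference of each probe set, tamoxifen minus vehicle in log2 units (horizontal axis), as points with the standard error of the fit, and as a grey bar the range when an array, or both arrays of experiment 1, were left out. The bars of Sdc1, Gpc4 and Cd44 stay above 1 and that of Gpc1 stays below 0, while that of Sdc2 c spans 0.

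The difference was also taken between the arrays of the same experiment. Sdc1 a gave 4.82, 5.26 and 6.02 in experiments 1, 2 and 3, and Gpc1 gave -0.58, -0.69 and -0.93. Cd44 a gave 2.18, 0.90 and 1.36, the largest in the experiment that holds vehicle array 1. Sdc4 changed sign, with 0.23, 0.40 and -0.11.

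**Figure D3:**
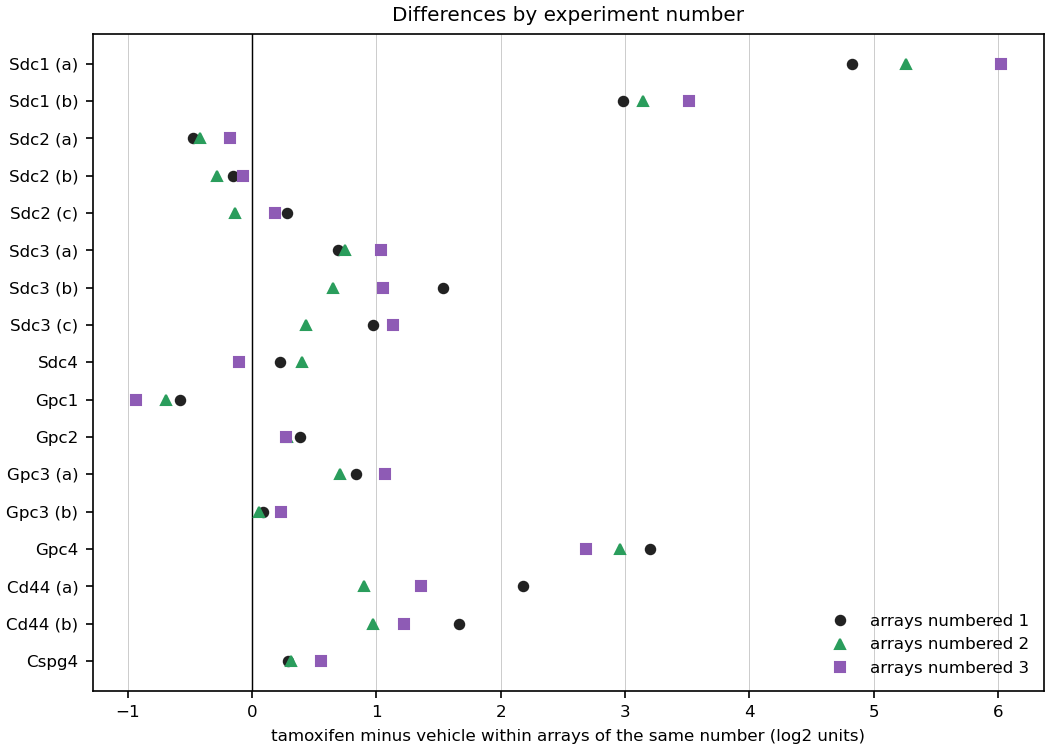
Difference between the tamoxifen and the vehicle array of the same experiment number in log2 units (horizontal axis) for each probe set, with 1 symbol per experiment. The symbols of Sdc2 c and of Sdc4 fall on both sides of 0. Nothing is read from the agreement of the others, since this contrast was in view when the genes were chosen.

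Genes that build, bind or release these molecules were then followed in 6 lists, each gene by its brightest probe set. Of 160 genes listed 136 were measured. In the limma test, adjusted over all probe sets, 19 rose and 21 fell, against 13.9% of all 14217 genes higher and 17.3% lower. The median difference over the 136 was 0.0067, against 0.012 over all genes. The number that rose was 11 without tamoxifen array 2 or vehicle array 2, and 12 without vehicle array 3.

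Of 27 measured genes of heparan sulfate synthesis and editing, 2 rose, 4 fell and 21 did not pass (median difference -0.0055). With the experiment as a block 7 fell. Without tamoxifen array 1 or 2 or vehicle array 1 or 2 only 1 rose, and without tamoxifen array 2 only 2 fell. Ext1 and Ext2, the copolymerase that builds the chain, both fell. Ext1 read 7.38, 7.49 and 7.37 after tamoxifen, against 8.29, 7.90 and 8.20 after vehicle (difference -0.71 ± 0.12, limma adjusted p = 0.0073), while its dimmer probe set (-0.42) did not pass. For Ext2 the difference was -0.56 ± 0.12 (limma adjusted p = 0.0158) and it no longer passed without tamoxifen array 1 (adjusted p = 0.0532) or 2 (0.0563) or vehicle array 2 (0.0528). Ugdh, which makes the UDP-glucuronate used for these chains, fell by 0.87 ± 0.11 (limma adjusted p = 0.0030). Glce, the epimerase that turns glucuronate into iduronate within the chain, rose by 1.20 ± 0.12 (limma adjusted p = 0.0014), reading 8.66, 8.85 and 8.68 after tamoxifen against 7.75, 7.47 and 7.37 after vehicle. The 3-O-sulfotransferase gene Hs3st5 rose by 0.88 ± 0.21 at a low level (limma adjusted p = 0.0240). That call was lost when an array other than tamoxifen 3 was left out, and its dimmer probe set gave -0.0076. Papss1, which makes the sulfate donor, was the fourth that fell (-0.40) and was named after its value was seen. Ndst1, which starts sulfation of the chain, differed by 0.34 ± 0.12 and did not pass (limma adjusted p = 0.0946). The sulfatase genes Sulf1 (-0.33 ± 0.12) and Sulf2 (-0.80 ± 0.34) and the heparanase gene Hpse (-0.0055 ± 0.083) did not pass either, though Sulf2 did with the experiment as a block (limma adjusted p = 0.0318). Without vehicle array 3 Ndst1 (limma adjusted p = 0.0467) and Sulf1 (0.0397) passed, as did Sulf2 without tamoxifen array 3 (0.0123). The dimmer probe set of Sulf1 gave 0.11.

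Of 11 measured genes of chondroitin and dermatan sulfate synthesis none rose and 4 fell, with a median difference of -0.33. With the experiment as a block, or without tamoxifen array 1, 1 rose. Chsy1, a chondroitin synthase, read 11.02, 10.69 and 10.62 after tamoxifen, against 12.28, 12.10 and 11.59 after vehicle, and fell by 1.22 ± 0.20 (limma adjusted p = 0.0062). The sulfotransferase gene Chst12 fell by 1.25 ± 0.23 (limma adjusted p = 0.0097), and its dimmer probe set fell too (-1.04). The others that fell, named after their values were seen like those singled out so in the lists that follow, were Dsel (-1.02) and Csgalnact2 (-0.54).

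Of 18 measured genes around hyaluronan, the ligand of Cd44, 2 rose, 1 fell and 15 did not pass (median difference 0.03). Without tamoxifen array 2 or vehicle array 2 or 3 none rose, without vehicle array 1 only 1 rose, and without vehicle array 3 the number that fell was 2. Hyal2, a hyaluronidase of the cell surface, rose by 0.49 ± 0.11 (limma adjusted p = 0.0192). It did not pass when tamoxifen array 2 (adjusted p = 0.0555) or vehicle array 2 (0.0627) or 3 (0.0545) was left out. Cemip, which helps to break down hyaluronan, rose by 0.39 ± 0.11 at a low level (limma adjusted p = 0.0397), a call lost with each array left out except tamoxifen array 3 and with 3 other scalings (adjusted p = 0.0580 to 0.0691). Hyal3 fell by 1.08 ± 0.15 (limma adjusted p = 0.0034), with its dimmer probe set at -0.09. The synthase gene Has2 read 5.47, 5.53 and 5.51 after tamoxifen, against 5.08, 5.24 and 7.34 after vehicle. Vehicle array 3 was alone in being high, and the difference of -0.38 ± 0.57 did not pass (limma adjusted p = 0.687). Hmmr, a hyaluronan-binding protein also known from the mitotic spindle, differed by 1.03 ± 0.32 (limma adjusted p = 0.0567). It passed with the experiment as a block (limma adjusted p = 0.0353), without tamoxifen array 1 (0.0032) and without both arrays of experiment 1 (0.0080). It also passed with probe sets of mean log2 below 5 left out (0.0442) and with a trended, robust variance model (0.0450). Its dimmer probe set was higher by 1.16 (0.0228).

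Of 22 intracellular partners of syndecans, Cd44 and NG2, 8 rose, 2 fell and 12 did not pass, with a median difference of 0.30. With the experiment as a block 4 fell, and without vehicle array 2 or vehicle array 3 the number that rose was 5. Ezr, encoding ezrin, read 11.79, 11.53 and 11.54 after tamoxifen, against 10.26, 10.26 and 10.51 after vehicle, a rise of 1.28 ± 0.12 (limma adjusted p = 9.7e-04). Msn, encoding moesin, rose by 0.98 ± 0.11 (limma adjusted p = 0.0018), whereas the third member of that family, Rdx, differed by -0.21 ± 0.11 and did not pass (limma adjusted p = 0.211). The 4 other probe sets of Rdx gave 0.01 to 0.68, none of them passing. The largest (0.68) read 7.16, 9.31 and 8.95 after vehicle, against 9.01 to 9.31 after tamoxifen. The next (0.46) read 7.94, 9.36 and 9.12 after vehicle, against 9.15 to 9.33 after tamoxifen. In both, vehicle array 1 was alone in being low. Nf2, encoding merlin, a relative of ezrin, radixin and moesin, differed by -0.08 ± 0.17 (limma adjusted p = 0.795). Its other probe sets gave 0.25 and 0.08. Tiam1, a Rac activator known to bind the tail of syndecan-1, read 7.93, 7.85 and 8.29 after tamoxifen, against 5.66, 5.09 and 5.56 after vehicle. It rose by 2.58 ± 0.19 (limma adjusted p = 4.7e-04), and its 3 other probe sets rose by 0.76 to 1.28. The vehicle values of Tiam1 were low, so the size of its rise is uncertain. The adaptor gene Sdcbp, encoding syntenin, which binds syndecan tails, was high in both groups and differed by 0.28 ± 0.09 without passing (limma adjusted p = 0.0690). With a trended, robust variance model it passed (limma adjusted p = 0.0478). Ank3, encoding ankyrin-G, fell by 2.01 ± 0.16 (limma adjusted p = 6.3e-04). Of its other probe sets 1 fell (-2.09) and 1 did not pass (-0.42). Prkca, a kinase that syndecan-4 is known to bind, fell by 0.91 ± 0.12 (limma adjusted p = 0.0033).

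Of 29 measured genes of shedding and release, 4 rose, 6 fell and 19 did not pass (median difference -0.02). With the experiment as a block 7 fell. Mmp14, a membrane protease known to cut syndecan-1 and Cd44, read 10.41, 10.14 and 10.11 after tamoxifen, against 9.27, 9.62 and 9.21 after vehicle. It rose by 0.85 ± 0.14 (limma adjusted p = 0.0071), and its dimmer probe set (0.27) did not pass. Mmp16, a related protease, rose by 2.07 ± 0.40 (limma adjusted p = 0.0113). Its vehicle level was low (mean 5.19), so the size of that rise is uncertain. The inhibitor gene Timp1 rose by 1.48 ± 0.12 (limma adjusted p = 6.2e-04). Adam17, a main sheddase of syndecans and Cd44, fell by 0.51 ± 0.09 (limma adjusted p = 0.0090). Adam10, another Cd44 sheddase, differed by -0.40 ± 0.27 (limma adjusted p = 0.347), and without vehicle array 1 it was -0.68 and passed (limma adjusted p = 0.0419). It also passed without both arrays of experiment 1 (limma adjusted p = 0.0427). Its dimmer probe set gave 0.14 with all 6 arrays. There vehicle array 1 (7.31) lay below the tamoxifen arrays (8.85 to 8.98), and vehicle arrays 2 and 3 (9.74 and 9.26) lay above them. Mmp17 fell by 1.49 ± 0.22 (limma adjusted p = 0.0043). Mmp2 fell by 1.10 ± 0.31 (limma adjusted p = 0.0422), but did not pass without tamoxifen array 1 (adjusted p = 0.115) or 2 (0.136), without vehicle array 3 (0.0529) or with cyclic loess (0.0527). Its dimmer probe set gave 0.11 and did not pass (0.519). Mmp15 was the fourth gene that rose (0.69). Mmp9 was low on all arrays and did not pass (0.15 ± 0.11, limma adjusted p = 0.399).

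Of 29 other proteoglycan core proteins measured, 3 rose, 4 fell and 22 did not pass (median difference -0.01). Only 1 rose without tamoxifen array 1 or 2, and 2 fell without tamoxifen array 2 or 3. The block on experiment gave 6 that fell. Gpc6, a glypican closely related to Gpc4 and not among the 10 members, read 9.61, 9.31 and 9.43 after tamoxifen, against 7.81, 7.69 and 8.76 after vehicle. All tamoxifen arrays were higher, and vehicle array 3 lay nearest to them. It rose by 1.37 ± 0.28 (limma adjusted p = 0.0141), and 2 of its other probe sets rose as well (1.53 and 1.61) while the third, at 0.43, did not pass. Without both arrays of experiment 1 its brightest probe set did not pass (limma adjusted p = 0.0909). The secreted chondroitin sulfate proteoglycan gene Vcan rose by 2.22 ± 0.58 (limma adjusted p = 0.0345), a call lost without any 1 tamoxifen array. Its vehicle values were 8.34, 8.62 and 6.31, so the spread lay in that group. Of its other probe sets 2 rose (2.16 and 1.85) and 2 did not pass (0.97 and 0.14). The basement membrane proteoglycan genes Hspg2 and Col18a1 fell by 1.45 ± 0.42 (limma adjusted p = 0.0483) and by 0.93 ± 0.14 (limma adjusted p = 0.0050). Ptprz1 also rose (0.86), and Agrn (-0.91) and Col9a2 (-0.61) also fell. The call of Hspg2, perlecan, was lost with any array left out except vehicle array 2 (adjusted p = 0.0725 to 0.146), and with quantile normalisation (0.0530) and cyclic loess (0.0588).

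**Figure D4:**
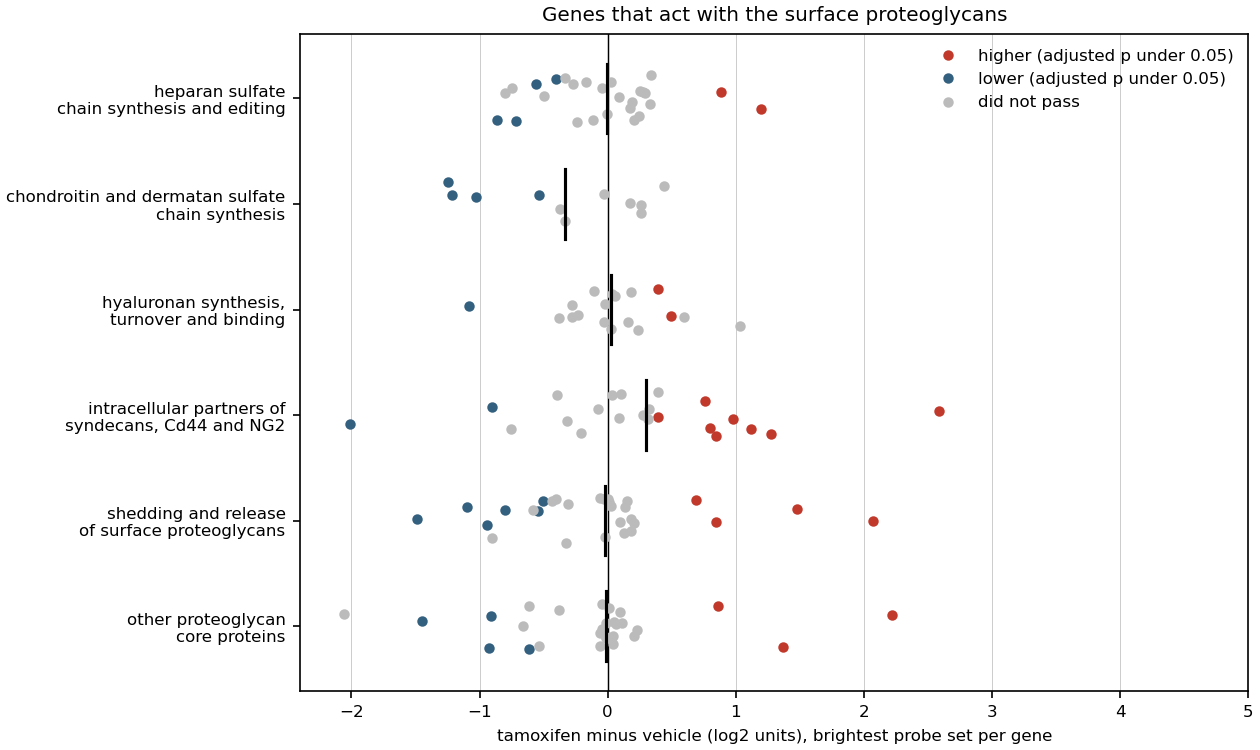
Difference of each measured gene of the 6 lists, tamoxifen minus vehicle in log2 units (horizontal axis), by the brightest probe set, coloured by whether it passed the limma test, with a black bar at the median of the list. The list of intracellular partners has its median at 0.30 and that of chondroitin and dermatan sulfate synthesis at -0.33, while the medians of the other lists lie near 0.

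The labelled cell type and other cell types were checked by marker lists. Of 14 measured Schwann lineage markers 1 rose and 5 fell, with the number that fell at 3 without tamoxifen array 2 and at 7 with the experiment as a block. Egr2, a regulator of myelination, was the one that rose (4.12). Its vehicle level was low (mean 5.88), so the size of that rise is uncertain. Ngfr (-1.53), Pmp22 (-2.18) and Mbp (-1.96) were among those that fell. These and Egr2 were named after their values were seen. The median difference of the 14 was -0.63. Their summed linear signal, in which the brightest markers weigh most, was 18254 to 26790 on the tamoxifen arrays, against 48062 to 54969 on the vehicle arrays. S100b and Cnp were high in both groups and lower after tamoxifen (-0.76 ± 0.22, limma adjusted p = 0.0459, and -1.26 ± 0.18, limma adjusted p = 0.0043). The call of S100b was lost with any array left out except tamoxifen array 3. Sox10 (-0.90 ± 0.34, limma adjusted p = 0.104) and Erbb3 (-0.06 ± 0.20, limma adjusted p = 0.868) did not pass. Sox10 passed with the experiment as a block (limma adjusted p = 0.0300) and without both arrays of experiment 1 (0.0257). Of 13 smooth muscle and pericyte markers 0 passed in limma, and with the experiment as a block 1 fell. Their summed signal was 8021 to 9767 after tamoxifen, against 9638 to 11952 after vehicle. The brightest were Mcam (12.81 ± 0.24 after tamoxifen and 13.05 ± 0.26 after vehicle, SD, n = 3) and Tagln. Mcam held most of that summed signal. By their mean over the 6 arrays Pdgfrb, Acta2, Smtn and Tagln lay at 7.29 to 9.24. The rest, Rgs5, Myh11, Des, Cnn1, Abcc9, Kcnj8, Notch3 and Lmod1, lay at 4.34 to 5.78, low on the scale. All but Mcam and Tagln were named after their values were seen. Of 9 measured oligodendrocyte lineage markers 1 rose and 2 fell, and without tamoxifen array 2 none rose and 1 fell, as 1 did without tamoxifen array 3 or vehicle array 2 or 3. The block on experiment gave 3 that fell. Their summed signal was 1737 to 2167 after tamoxifen, against 2472 to 5685 after vehicle. Pdgfra, also a fibroblast marker, rose (0.52), and Mog (-0.98) and Nkx2-2 (-0.42) fell. All of these were low (means over the 6 arrays of 5.16, 5.24 and 4.78) and cannot be told from background. The brightest, Sox10, is shared with Schwann cells, and Olig2 was low (5.59 ± 0.11 after tamoxifen and 5.68 ± 0.22 after vehicle, SD, n = 3).

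Of 18 fibroblast and perineurial markers 5 rose and 5 fell, and with the experiment as a block 2 rose. The number that rose was 1 without tamoxifen array 2, 2 without tamoxifen array 3 or vehicle array 2 or 3, and 3 without vehicle array 1. Their summed signal was 24565 to 31335 after tamoxifen, against 36627 to 38453 after vehicle. Postn, Col1a2 and Col1a1 held most of it. Pdgfra, Thy1, Dpt, Lum, Dcn, Fap, Twist1, Twist2 and Cldn1 were low, with means over the 6 arrays of 3.43 to 5.43. The other markers of the list had means of 6.38 to 13.38. Postn did not pass (0.39 ± 0.33, limma adjusted p = 0.454). Col1a2 was lower (-0.46 ± 0.13, limma adjusted p = 0.0478), but did not pass under the block (adjusted p = 0.0530) and without any 1 array except vehicle array 1. Those that rose were Fbln1 (1.61), Slc2a1 (0.61), Pdgfra (0.52), Twist2 (0.49) and Pi16 (0.37), and those that fell besides Col1a2 were Col14a1 (-2.47), Itgb4 (-2.47), Col1a1 (-1.23) and Tjp1 (-0.76). Of 17 macrophage markers 1 rose, Coro1a (1.45), and the summed signal was 810 to 859 after tamoxifen, against 720 to 774 after vehicle. Laptm5 and Lyz2, the brightest, did not pass. The other macrophage markers had means over the 6 arrays of 3.86 to 5.60, low on the scale. Part of the gap between the sums came from Coro1a (mean 6.14 after tamoxifen and 4.70 after vehicle). Of 11 endothelial markers 1 rose, Ramp2 (1.29 ± 0.14, limma adjusted p = 0.0017), while Esam did not pass. The summed signal was 445 to 498 after tamoxifen, against 365 to 383 after vehicle. Most of that gap came from Ramp2 (mean 7.09 after tamoxifen and 5.81 after vehicle). Besides Ramp2 and Esam, the endothelial markers had means over the 6 arrays of 4.17 to 5.43, low on the scale, and none passed. The part of these markers in the differences of the proteoglycan genes was not tested. In bulk RNA a change in the number of cells of a type and a change in RNA per cell cannot be told apart.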

How the data were processed

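Total RNA (RNeasy kit, per the labels) of 6 cultures was measured on Affymetrix arrays. The deposited values are log2 values per probe set, made with RMA per the submitters' processing notes (version not given in the sources used here), and ran from 2.99 to 14.58. RMA compresses low values, no detection calls were used, and the number of arrays limits precision. Of 31099 probe sets 57 controls were left out. Symbols came from the platform's annotation, with 20758 of 20826 singly named probe sets matched to RefSeq and 0 changed. Tamoxifen was compared with vehicle by lmFit and eBayes of limma 3.58.1 (R 4.3.3), two-sided and with no covariate. P-values were adjusted after Benjamini and Hochberg over all 31042 probe sets, at 0.05. The smallest p of an exact permutation test would be 0.1, so none was run. The fit was checked on simulated data.

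Members, lists and tests were chosen with earlier results of these data known. Named were all members, the 2 largest rises and falls past the threshold per pathway list, 23 fixed genes (Has1 had no value), the 2 brightest markers per marker list and the 3 genes nearest to the member probe set with the largest difference. Arrays of the same experiment number (from the titles) deviated together from their group means (correlations 0.26, 0.20 and 0.28). The main fit left this pairing out, so standard errors and adjusted p-values are unpaired unless the block is named. The numbers were taken as pairs for the differences within experiments and in the block, which was an alternative. Others were leaving out arrays, scaling, a filter, variance models, array weights and a minimum fold.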

Additional observations from a re-analysis of the deposited data

How the results depend on the processing

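Member differences kept their sign under all alternatives run, except Sdc2 c, which was below 0 in 3 of 14, and none moved by more than the spread between arrays. With arrays left out, the number of member probe sets called ranged from 4 to 9 higher and from 0 to 1 lower, and that of pathway genes from 11 to 18 higher and from 15 to 21 lower. With a minimum fold of 1.5 the members called were 3 higher (against 10) and 0 lower (against 1), and the pathway genes 4 higher (against 19) and 1 lower (against 21). That test is stricter by construction. Both Sdc1 probe sets and Gpc4 remained among the calls. With the experiment as a block the members called were also 10 higher and 1 lower, with Cspg4 in place of Gpc2 (which was called in no setting that left out an array), and the pathway genes 21 higher and 29 lower. Its other changed calls stand beside the genes, and it changed no other call among the named genes. By list, arrays left out gave 0 to 2 hyaluronan genes higher, and cyclic loess gave 2 other core proteins lower (against 4). Quantile normalisation and median centring gave 3 fibroblast markers higher (against 5). Of the named genes 687 results under alternatives kept their side of the threshold, 75 lost the call, 14 gained it and none of those past the threshold changed sign. No detection calls were used, so the low values of Gpc2, Gpc3, Cspg4 and vehicle Sdc1 cannot be told from background. The same holds for vehicle Tiam1, Mmp16 and Egr2 and for the cell type markers read at low levels.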
